A study of Mus musculus with 18 samples.

Results

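Transcripts of 8 genes were followed in mouse retina after optic nerve crush: the ligands Bdnf, Ntf3 and Gdnf, the receptors Ntrk2, Ntrk3 and Ngfr, and the GDNF receptor genes Gfra1 and Ret. They were found by the RefSeq accession printed for each array probe, which gave 13 of the 39429 probes on the array, and 8 of the 20144 genes with a symbol. Ntrk3 had 4 probes, Ntrk2 had 3 and each other gene had 1. All 13 were among the 30484 probes that passed the filter on dim signal and were tested, and on all 17 arrays compared their retinal signal was well above background.

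Neurotrophins are secreted survival and growth factors of neurons. BDNF signals mainly through the receptor tyrosine kinase TrkB, the product of Ntrk2, and neurotrophin-3 mainly through TrkC, the product of Ntrk3. The receptor encoded by Ngfr binds every neurotrophin and, with partner proteins, also their uncleaved precursors. GDNF binds GFRα1, a receptor held at the membrane by a lipid anchor, and the complex activates the kinase RET. BDNF is a well known survival factor for retinal ganglion cells, the neurons whose axons form the optic nerve, and Ngfr is also expressed by Müller glia.

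All mice carried floxed alleles of Map3k12, the gene of dual leucine zipper kinase (DLK), which acts upstream of JNK signalling, and all received tamoxifen at 10 to 12 weeks of age. Cre-positive mice also carried Cre-ERT, a recombinase switched on by tamoxifen, under the broadly active CAG promoter, so that the deletion is not limited to ganglion cells, while Cre-negative littermates lacked the transgene and served as controls. Whole retinas were taken 3 days after the crush, and the uninjured eye served as the uncrushed control. The 4 groups held 4 Cre-negative uncrushed, 3 Cre-negative crushed, 5 Cre-positive uncrushed and 5 Cre-positive crushed retinas, each on 1 array. Another Cre-negative array was left out because its labels disagree on crush, with uncrushed in its title and crushed in its description. The labels do not say which retinas came from the same animal, so the p-values measure the spread between these samples.

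On each array Cy5 marked the retinal RNA and Cy3 a universal mouse reference, and every level below is log2 of Cy5 over Cy3 for a named probe. A probe passed a comparison at a Benjamini-Hochberg adjusted p under 0.05 in limma, adjusted over all 30484 probes. Between 68% and 76.2% of probes were well above background in Cy5, and the median Cy5 signal was 228 to 278 over a background of 72.5 to 84. Map3k12 itself was 2.43 ± 0.16 (SD, n = 4) and 2.51 ± 0.17 (n = 3) in Cre-negative uncrushed and crushed retinas, and 2.0 ± 0.16 (n = 5) and 2.04 ± 0.20 (n = 5) in Cre-positive ones. As a check of the tissue, the mean over 10 bipolar cell markers was 4.34 to 4.64 over the 17 arrays. The mean over 14 ganglion cell markers ran from 3.20 to 3.30 before and from 2.46 to 2.55 after crush without Cre. With Cre it ran from 3.30 to 3.45 before and from 3.09 to 3.21 after crush. Markers of cornea, iris and ciliary body stood at 0.23 in Cre-positive uncrushed replicate 4, at -1.43 in replicate 2 of that group and at -2.11 to -1.67 on the other arrays, and lens markers were highest, at 1.64, in Cre-positive crushed replicate 5. Crushed and uncrushed retinas lay at different positions of the slides, so position and crush cannot be told apart within a genotype. The genotypes were not balanced over slides and positions either. Slide 1 held only Cre-positive and slide 5 only Cre-negative retinas. Crushed retinas lay at positions 2, 2, 4, 2 and 2 with Cre and at 4, 2 and 4 without. Uncrushed ones lay at 1, 1, 1, 3 and 1 with Cre and at 3, 3, 1 and 3 without. The part of position in the Cre effects was not tested.

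Of the 13 probes, the Bdnf probe alone passed a test, in 1 of the 5 comparisons: Bdnf was lower in Cre-positive than in Cre-negative crushed retinas. In that comparison 1.12% of all probes tested passed, 0.518% being lower. No member probe passed for the crush response in Cre-negative retinas (1.97% of all probes passed), the crush response in Cre-positive retinas (0.735%), the difference between these responses (0.358%) or the Cre effect in uncrushed retinas (0.00984%). At an unadjusted p under 0.05, the members counted 3 of 13 after crush in Cre-negative retinas, against 13.2% of all probes. The other counts were 1 of 13 after crush in Cre-positive retinas (9.37%), 0 of 13 for the difference (8.33%), 1 of 13 for the Cre effect in uncrushed retinas (5.42%) and 3 of 13 for the Cre effect in crushed retinas (13.8%). Groups did not overlap for 3 of 13 probes after crush in Cre-negative retinas (15.3% of all probes) and for 1 of 13 between genotypes after crush (10.2%). The median change over the 13 probes lay between -0.08 and 0.05 in the 5 comparisons, against 0.0005 to 0.0085 over all probes. Both crush responses and both Cre effects reuse the same arrays, so that the Cre-negative crushed retinas enter the crush response in Cre-negative retinas as well as the Cre effect in crushed retinas.

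**Figure D1:**
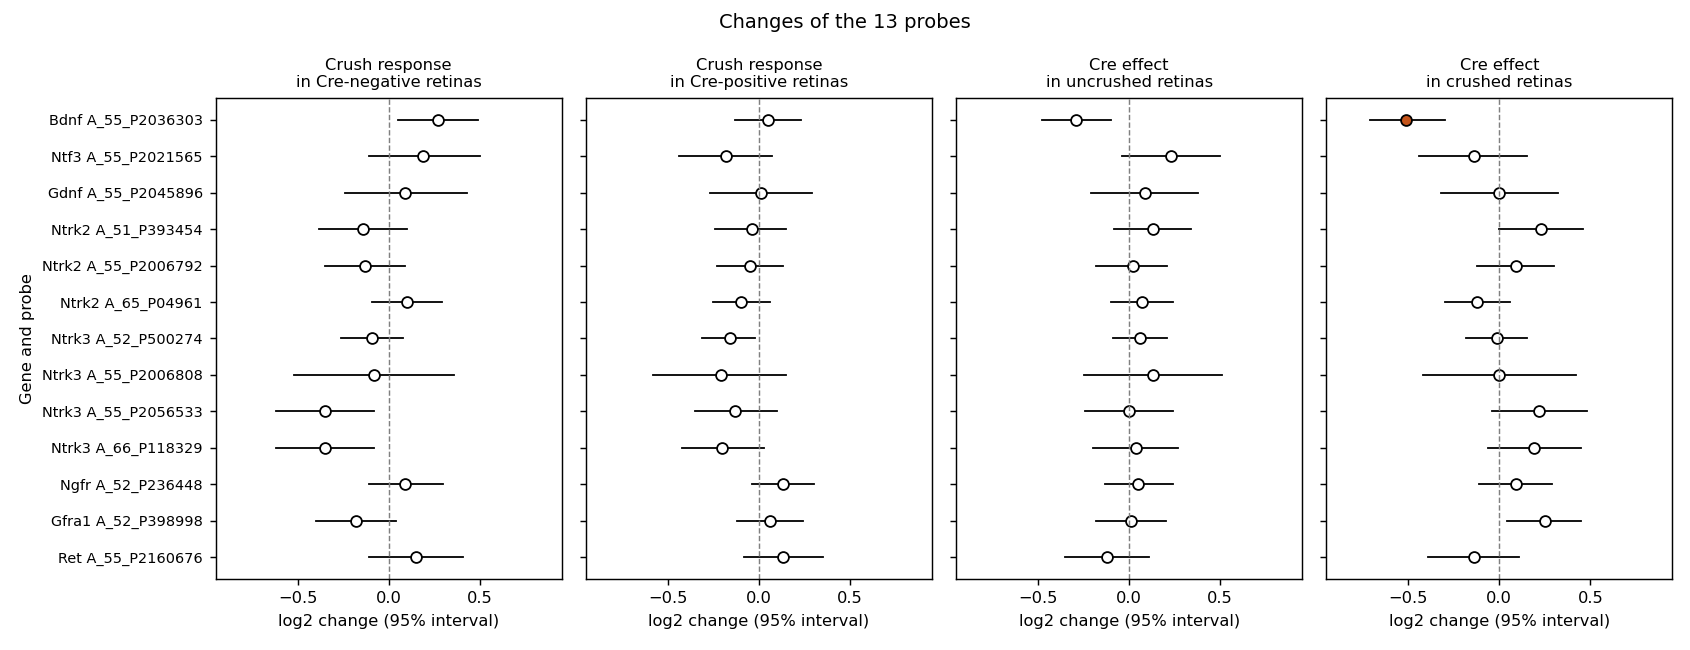
Log2 change (x axis) of each of the 13 member probes (y axis) with its 95% interval in 4 comparisons; the filled point passed at an adjusted p under 0.05. The Bdnf probe in crushed retinas, at -0.51, is the filled point, and most of the other intervals cross 0.

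Bdnf transcription starts at several alternative promoters that splice to a shared coding exon, and neuronal activity acts on some of them. RefSeq (assembly GRCm38.p6) gave 7 separate 250-base windows upstream of Bdnf starts, all on the plus strand of chromosome 2. Of these, the 2 windows that hold a match to TGANTCA or TNACGTCA are shown. These patterns are loose forms of the AP-1 and CRE motifs, with any base at N. They were searched because AP-1 factors are downstream of the JNK pathway in which DLK acts and CRE elements answer to neuronal activity. The match is in capitals, and each window ends just before the annotated start. The first lies at chr2:109676782-109677031, with TGAATCA beginning 152 bases before the start, and the second at chr2:109692186-109692435, with TCACGTCA beginning 38 bases before the start.
Bdnf window 2: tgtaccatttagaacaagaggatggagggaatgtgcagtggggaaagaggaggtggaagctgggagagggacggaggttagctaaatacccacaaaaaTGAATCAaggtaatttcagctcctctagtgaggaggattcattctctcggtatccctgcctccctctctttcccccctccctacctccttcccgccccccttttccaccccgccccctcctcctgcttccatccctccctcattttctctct
Bdnf window 3: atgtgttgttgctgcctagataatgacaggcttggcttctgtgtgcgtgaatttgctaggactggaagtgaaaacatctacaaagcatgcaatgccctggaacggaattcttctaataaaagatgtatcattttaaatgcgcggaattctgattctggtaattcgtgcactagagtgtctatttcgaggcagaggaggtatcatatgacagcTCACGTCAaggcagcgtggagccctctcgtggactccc
Both strands were searched for TGANTCA and TNACGTCA, and the matches did not overlap. The first motif is held by 6.75% and the second by 2.52% of the 32851 windows of the table, and a match is a description of the letters only. TGAATCA, with A at its centre, matches the loose pattern and is not a strict AP-1 motif. The other 5 Bdnf windows and the 7 windows of Ntf3, Gdnf, Ntrk2, Ngfr and Gfra1 held neither. The array reads Bdnf through 1 probe, annotated to NM_007540, and the files do not give its sequence, so no transcript start can be assigned to the values that follow.

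By group mean, Bdnf was lowest in the Cre-positive retinas and highest in the crushed retinas without Cre. The log2 ratios in Cre-negative uncrushed retinas were -0.74, -0.81, -0.80 and -0.86 (mean -0.80 ± 0.05, SD, n = 4). In Cre-negative crushed retinas they were -0.62, -0.49 and -0.49 (-0.53 ± 0.07, n = 3). Every crushed value was above every uncrushed value in these Cre-negative mice. The left-out array, of unsettled crush label, stood at -0.81, so the groups would overlap if it counted as crushed. Its ganglion cell marker mean, 2.46, was inside the span of the crushed retinas without Cre (2.46 to 2.55). The lowest uncrushed retina without Cre had 3.2. Markers did not set its group, and the lack of overlap holds only if that array is not counted as crushed. Cre-positive uncrushed retinas gave -1.19, -0.96, -1.26, -1.20 and -0.83 (-1.09 ± 0.19, n = 5), and Cre-positive crushed retinas gave -0.85, -0.92, -1.01, -1.20 and -1.22 (-1.04 ± 0.17, n = 5). The 2 Cre-positive groups overlapped almost fully, and all Cre-positive crushed values lay below all Cre-negative crushed values. From low to high the order of the group means was Cre-positive uncrushed, Cre-positive crushed, Cre-negative uncrushed and Cre-negative crushed, the lowest pair differed by less than its spread, and the middle pair overlapped.

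**Figure D2:**
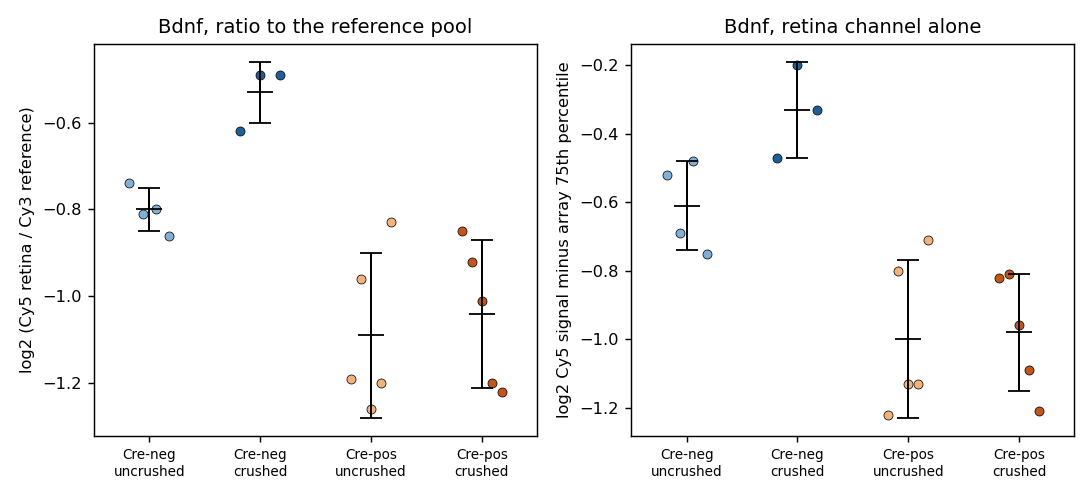
Bdnf on each of the 17 arrays (points) by group (x axis), with group mean and SD (bars), as log2 of Cy5 over Cy3 (left) and as log2 Cy5 signal minus the 75th percentile of its array (right). The 3 Cre-negative crushed retinas, at -0.62 to -0.49 on the left, are the highest values in both panels.

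In crushed retinas the Cre effect on Bdnf was -0.51 (SE 0.10, limma adjusted p = 0.012, 95% interval -0.71 to -0.30), which places Cre-positive retinas at 70.4% of the Cre-negative level. The groups did not overlap, and an exact two-sided permutation of the 8 arrays gave p = 0.018, the smallest its 56 splits allow. That permutation p mostly restates the lack of overlap, so it is no separate support, and it was not adjusted over probes. Measured in Cy5 alone, without the reference, the effect was -0.64 (SE 0.13, limma adjusted p = 0.02), a measure by which 1.21% of all probes passed. On the 2 slides that held both groups, with 1 array of each per slide, the differences were -0.73 and -0.23. With slide as a block the effect was -0.47 (limma adjusted p = 0.042). It was -0.46 (adjusted p = 0.032) without the cornea-rich and the lens-rich array. The call was lost without Cre-negative crushed replicate 2 (-0.48, adjusted p = 0.081) or replicate 3 (-0.49, adjusted p = 0.069). In the same comparison 9 of the 14 ganglion cell markers were higher in Cre-positive retinas, as were 0.597% of all probes. Pigment epithelium markers had a median difference of 0.60, with 0 of 11 passing, 2 of 11 at an unadjusted p under 0.05 and a summed Cy5 level of 5.26 to 25.6 against 3.61 to 5.78. Microglia and macrophage markers had one of 0.31, with 0 of 11 passing, 6 of 11 at an unadjusted p under 0.05 and a summed level of 17.1 to 24.1 against 17.2 to 17.5. Of all probes, 13.8% had an unadjusted p under 0.05 in this comparison. The part of these marker lists in the Bdnf result was not tested. These are whole retinas, in which fewer cells of a type and less RNA per cell cannot be told apart.

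Bdnf differed in the same direction before injury, without passing the test over all probes. In uncrushed retinas the Cre effect was -0.29 (SE 0.09, unadjusted p = 0.0054, limma adjusted p = 0.89), at 82% of the Cre-negative level, and the groups overlapped at 1 Cre-positive array. The exact permutation p was 0.032 over 126 splits, not adjusted over probes. It used the same values as the limma test, so it is no separate support. The differences on the 3 slides that held both groups, with 1 array of each per slide, were -0.38, -0.11 and -0.09.

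The crush response of Bdnf was 0.27 in Cre-negative retinas (SE 0.10, unadjusted p = 0.018, limma adjusted p = 0.25). On the 3 slides that held both groups, with 1 array of each per slide, the differences were 0.32, 0.24 and 0.32. The groups of this response, which exclude the left-out array, did not overlap. Its exact permutation p of 0.029, the smallest that 35 splits allow, mostly restates that and was not adjusted over probes. In Cre-positive retinas the response was 0.05 (SE 0.09, adjusted p = 0.89), with an interval of -0.13 to 0.23. The difference between the responses, -0.22 (SE 0.13, adjusted p = 0.7) with an interval of -0.50 to 0.06, did not pass.

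Ntf3, which encodes neurotrophin-3, gave 0.76 to 1.59 over the 17 arrays, and its 4 groups overlapped. The means were 1.09 ± 0.11 (n = 4) and 1.29 ± 0.21 (n = 3) in Cre-negative uncrushed and crushed retinas, and 1.33 ± 0.15 (n = 5) and 1.14 ± 0.31 (n = 5) in Cre-positive ones. Its crush response was thus 0.19 (SE 0.15, limma adjusted p = 0.64) without Cre and -0.18 (SE 0.12, adjusted p = 0.68) with Cre. The difference of -0.38 (SE 0.19, interval -0.78 to 0.02, unadjusted p = 0.064, adjusted p = 0.63) was the largest in size of the 13 probes for that comparison, but the Cre-positive crushed retinas alone spanned 0.76 to 1.59. The reference signal for Ntf3 was not well above background on any array, so its ratio is set by the Cy5 signal and a near-empty Cy3 spot. In Cy5 alone the crush response in Cre-positive retinas was 0.00 (SE 0.15).

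Gdnf, the ligand of the GFRα1 and RET complex, was below the reference, at -3.85 ± 0.22 (SD, n = 17), a level 14.4-fold higher in the pool than in the retina. That fold rests on a dim retinal signal, with Gdnf at 169 to 304 in Cy5 before background correction. Its log2 ratios ran from -4.11 to -3.39, and the group means, -3.92, -3.83, -3.83 and -3.82, differed by less than the spread within the groups. The crush responses were 0.09 (SE 0.16) and 0.01 (SE 0.13), and the Cre effects 0.09 (SE 0.14) and 0.00 (SE 0.15), with limma adjusted p of 0.87 to 1. For the Cre effect in crushed retinas the 95% interval of -0.32 to 0.32 bounds what these arrays could have missed by the ratio. In Cy5 alone that effect was -0.07 with a larger SE, 0.25. Since no array had the dyes swapped, every level against the reference also holds any dye bias, whereas differences between groups do not.

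**Figure D3:**
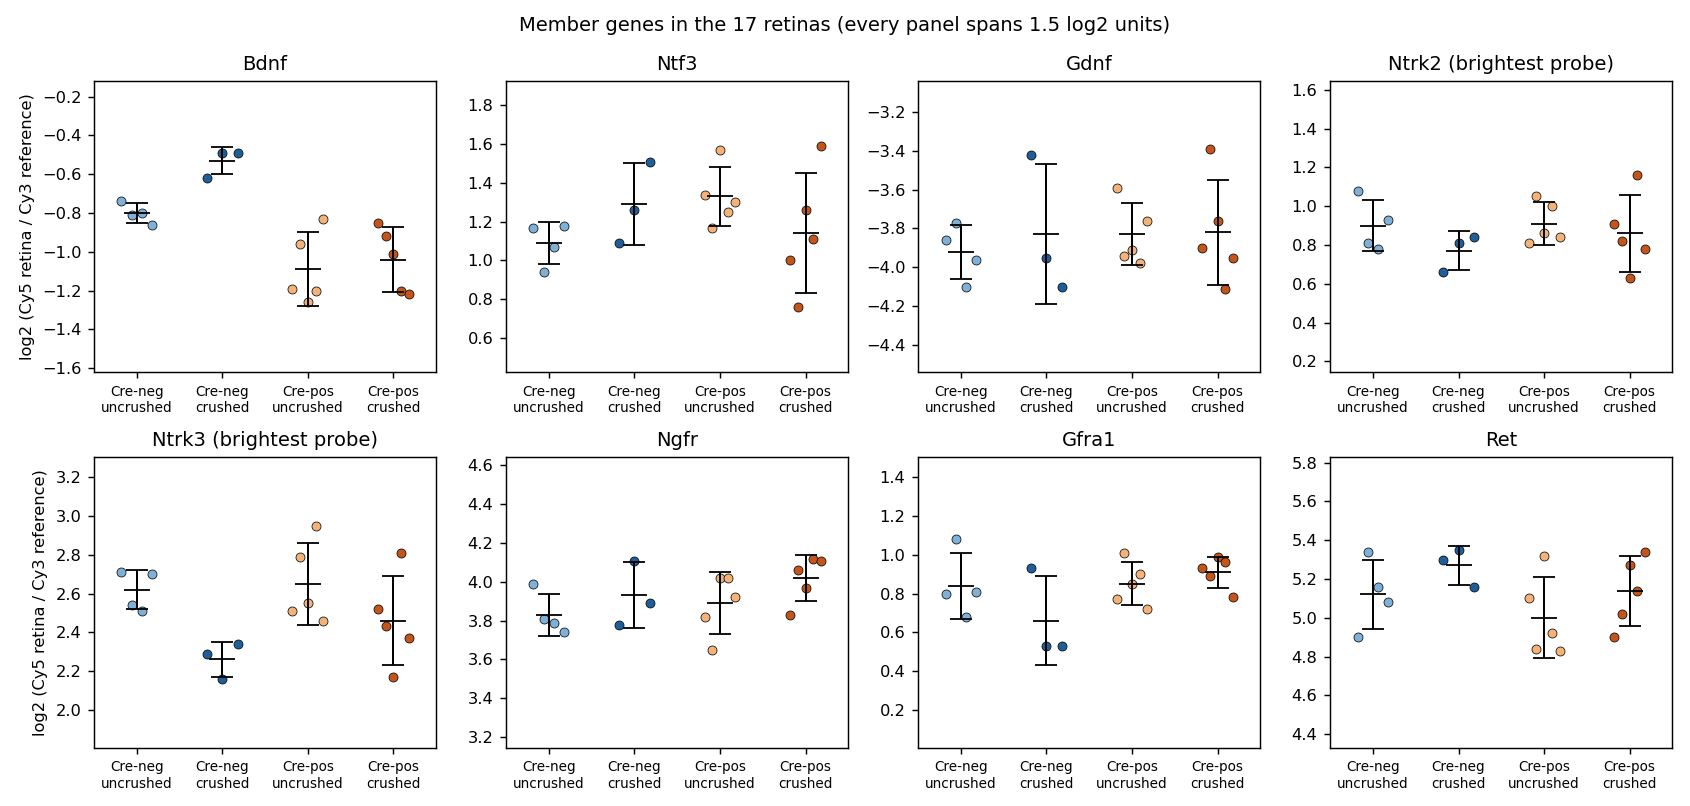
Log2 of Cy5 over Cy3 on each of the 17 arrays (points) by group (x axis) for the 8 genes, with group mean and SD (bars) and the same span of log2 units in every panel; Ntrk2 and Ntrk3 are shown by their brightest probe. Bdnf is the gene whose Cre-positive crushed values (-1.22 to -0.85) lie apart from its Cre-negative crushed values (-0.62 to -0.49), and Gdnf, Ntf3 and Ret overlap in all 4 groups.

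Ntrk2, the gene of TrkB, was read by 3 probes, and none passed in any comparison. The probes A_51_P393454 and A_55_P2006792 are annotated to NM_001025074, the full-length kinase, and A_65_P04961 to NM_008745, a truncated form that lacks the kinase domain. The files do not say which exons the probes match, so an annotation does not establish which isoform is read. After crush in Cre-negative retinas the changes were -0.14 (SE 0.11), -0.13 (SE 0.10) and 0.10 (SE 0.09) in that order, with limma adjusted p of 0.66, 0.67 and 0.72. In Cre-positive retinas they were -0.04 (SE 0.09), -0.05 (SE 0.09) and -0.10 (SE 0.07), with adjusted p of 0.92, 0.89 and 0.73. The crushed and uncrushed values of each probe overlapped in both genotypes.

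The brightest Ntrk2 probe, A_55_P2006792, gave 0.66, 0.81 and 0.84 in Cre-negative crushed retinas, and 1.08, 0.81, 0.78 and 0.93 in the uncrushed ones. The values of these groups overlapped. A_51_P393454 was 0.23 higher in Cre-positive than in Cre-negative crushed retinas (SE 0.11, unadjusted p = 0.047, limma adjusted p = 0.35). A_55_P2006792 gave 0.09 and A_65_P04961 gave -0.12 for the same difference, so the 3 probes did not share a sign. After group means were removed, A_55_P2006792 and A_65_P04961 correlated at r = 0.53 over the 17 arrays, and A_51_P393454 at 0.20 and 0.00 with them, as a description. That last probe is printed 9 to 10 times on an array after outlier spots are dropped, and its spots scattered with a median SD of 0.11, below the 0.18 pooled SD between retinas of a group.

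Ntrk3, the gene of TrkC, had its lowest group mean in Cre-negative crushed retinas with the 2 probes annotated to NM_008746, the full-length kinase, by the ratio, and neither probe passed. In Cy5 alone the A_66_P118329 mean was -0.70 in the crushed retinas of both genotypes. With A_66_P118329 the Cre-negative uncrushed retinas gave 2.71, 2.54, 2.51 and 2.70 (2.62 ± 0.10, n = 4) and the crushed ones 2.29, 2.16 and 2.34 (2.26 ± 0.09, n = 3). With A_55_P2056533 they gave 1.95, 1.58, 1.69 and 1.59 (1.70 ± 0.18) and 1.25, 1.35 and 1.46 (1.35 ± 0.11). All crushed values lay below all uncrushed values for both probes. The left-out array, of unsettled crush label, gave 2.34 with A_66_P118329, level with the highest crushed value. With A_55_P2056533 it gave 1.27, so the groups of that probe would overlap if the array counted as uncrushed. The change was -0.35 (SE 0.13) for each probe, with unadjusted p of 0.013 and 0.014 and limma adjusted p of 0.22 and 0.23. In Cy5 alone they were -0.32 and -0.47, with adjusted p of 0.52 and 0.33, and the reference signal of A_55_P2056533 was well above background on 0 of 17 arrays. The 3 slides that held both groups had 1 array of each. On them the differences in the ratio were -0.20, -0.41 and -0.35 with A_66_P118329, and -0.12, -0.35 and -0.34 with A_55_P2056533.

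The 2 Ntrk3 probes annotated to NM_182809, a truncated receptor without the kinase, gave -0.09 (SE 0.08, A_52_P500274) and -0.08 (SE 0.21, A_55_P2006808) in the same retinas by the ratio. Their reference signal was well above background on 6 and 2 of 17 arrays. As for Ntrk2, the annotation does not establish which isoform is read. In Cy5 alone these 2 probes gave -0.18 (unadjusted p = 0.039, limma adjusted p = 0.41) and -0.32 (adjusted p = 0.7), against -0.32 (A_66_P118329) and -0.47 (A_55_P2056533) for the NM_008746 probes. Their crushed and uncrushed values overlapped, and the difference between the probe pairs was not tested. The deviations of the NM_008746 probes from their group means correlated at r = 0.76 over the 17 arrays, while the other pairs of Ntrk3 probes gave -0.33 to 0.40. In Cre-positive retinas the 4 crush responses all had a negative sign, at -0.20, -0.13, -0.16 and -0.21 for A_66_P118329, A_55_P2056533, A_52_P500274 and A_55_P2006808, with limma adjusted p of 0.59, 0.75, 0.46 and 0.74. In Cy5 alone they were -0.33 (unadjusted p = 0.029, adjusted p = 0.5), -0.28, -0.09 and -0.31. The responses of the 2 genotypes differed by 0.16 (SE 0.17, limma adjusted p = 0.84) with A_66_P118329 and by 0.22 (SE 0.17, adjusted p = 0.76) with A_55_P2056533, and in Cy5 alone by -0.01 and 0.19. Ganglion cell markers fell over the same comparison, 9 of 14 in Cre-negative and 3 of 14 in Cre-positive retinas, where 0.768% and 0.0886% of all probes fell. The part of these markers in the Ntrk3 values was not tested.

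**Figure D4:**
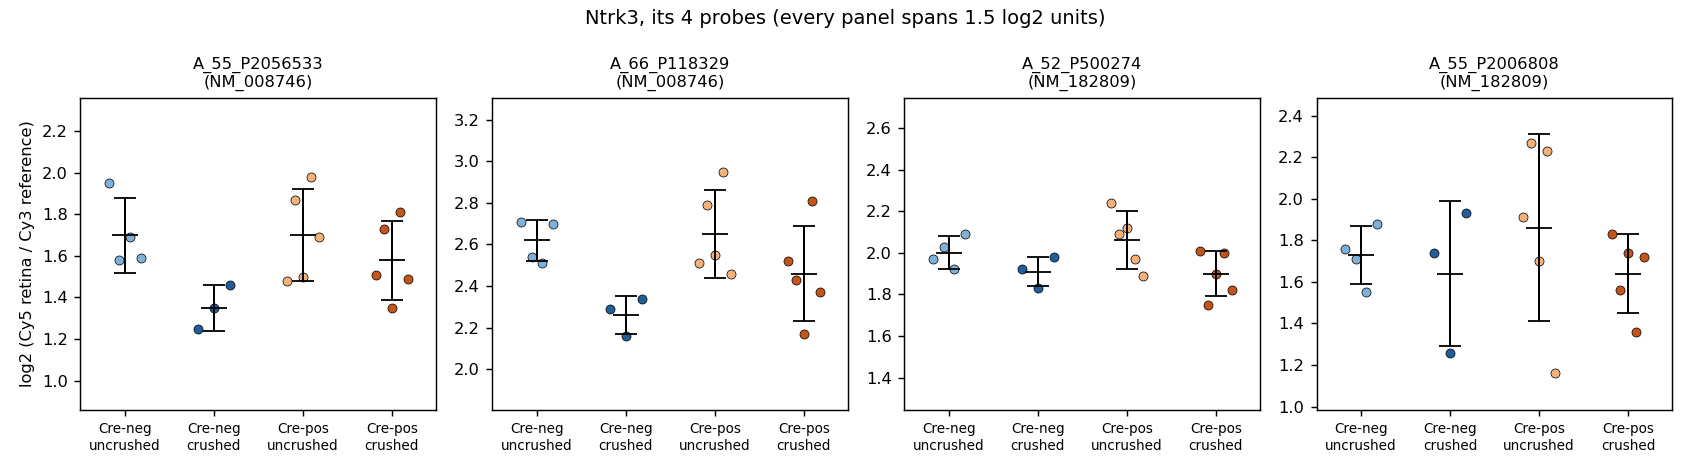
Log2 of Cy5 over Cy3 on each of the 17 arrays (points) by group (x axis) for the 4 Ntrk3 probes, with group mean and SD (bars) and the transcript each probe is annotated to. With both NM_008746 probes the Cre-negative crushed retinas (2.16 to 2.34 and 1.25 to 1.46) lie below the uncrushed ones (2.51 to 2.71 and 1.58 to 1.95), and with the NM_182809 probes they overlap.

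Ngfr was 15.1-fold higher in the retina than in the reference (3.92 ± 0.14, SD, n = 17), and no test passed. The ratios were 3.99, 3.81, 3.79 and 3.74 in Cre-negative uncrushed and 3.78, 4.11 and 3.89 in Cre-negative crushed retinas. They were 3.82, 3.65, 4.02, 4.02 and 3.92 in Cre-positive uncrushed and 3.83, 4.06, 3.97, 4.12 and 4.11 in Cre-positive crushed retinas. Crushed and uncrushed values overlapped in both genotypes. The changes were 0.09 (SE 0.10, limma adjusted p = 0.76) and 0.13 (SE 0.08, adjusted p = 0.65).

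In Cy5 alone, scaled to the 75th percentile of each array, the spread of Ngfr was narrower. Cre-negative retinas gave 1.38, 1.19, 1.26 and 1.24 before and 1.44, 1.47 and 1.39 after crush, which do not overlap, as for 13.4% of all probes by that measure. The left-out array stood at 1.5, above all of these values, so the groups would overlap if it counted as uncrushed. The crush response was 0.17 (SE 0.06, unadjusted p = 0.012, limma adjusted p = 0.24) in Cre-negative and 0.14 (SE 0.05, unadjusted p = 0.013, adjusted p = 0.36) in Cre-positive retinas. Neither passed, and the Cre effect was 0.03 (SE 0.05) before and 0.00 (SE 0.06) after crush. Ngfr is printed in 10 spots on each array, of which 7 to 10 were kept. Their ratios scattered with a median SD of 0.18 within an array, which leaves a standard error of 0.06 for an array's mean, against 0.14 between retinas of a group.

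**Figure D5:**
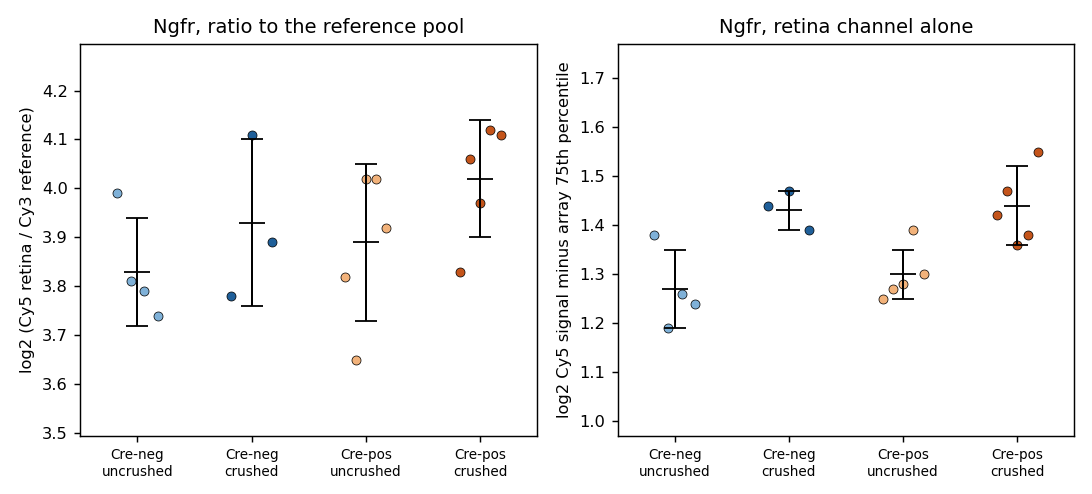
Ngfr on each of the 17 arrays (points) by group (x axis), with group mean and SD (bars), as log2 of Cy5 over Cy3 (left) and as log2 Cy5 signal minus the 75th percentile of its array (right). On the right the Cre-negative crushed retinas (1.39 to 1.47) lie just above the uncrushed ones (1.19 to 1.38), while on the left the same groups overlap.

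Gfra1, the GDNF-binding receptor, gave 0.80, 1.08, 0.68 and 0.81 in Cre-negative uncrushed retinas and 0.93, 0.53 and 0.53 in crushed ones. Cre-positive crushed retinas gave 0.93, 0.89, 0.99, 0.96 and 0.78, so 2 Cre-negative crushed retinas were lowest of all and the third was among the higher values. The Cre effect in crushed retinas was 0.25 (SE 0.10, unadjusted p = 0.021, limma adjusted p = 0.26) by the ratio and 0.01 (SE 0.16, adjusted p = 0.98) in Cy5 alone. The reference signal of this probe was well above background on 7 of 17 arrays, and its Cy5 signal was 144 to 242 before background correction. Its crush responses were -0.18 (SE 0.10, adjusted p = 0.49) and 0.06 (SE 0.09, adjusted p = 0.87).

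Ret, the signalling kinase of the GDNF receptor, was above the reference, at 5.12 ± 0.19 (SD, n = 17), or 34.7-fold. Its reference signal was well above background on 1 of 17 arrays, so that fold rests on a Cy3 level close to background. The group means were 5.12 ± 0.18 (n = 4), 5.27 ± 0.10 (n = 3), 5.0 ± 0.21 (n = 5) and 5.14 ± 0.18 (n = 5) in Cre-negative uncrushed, Cre-negative crushed, Cre-positive uncrushed and Cre-positive crushed retinas. The crush response was 0.15 (SE 0.12) without and 0.13 (SE 0.10) with Cre, and the Cre effect -0.12 (SE 0.11) and -0.14 (SE 0.12). The limma adjusted p was 0.67, 0.72, 0.93 and 0.66 in that order. In Cy5 alone these 4 values were 0.12, 0.09, -0.09 and -0.12, and none passed.

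Beside these genes, 77 others that serve the same pathways were tested in 5 lists, and 8 of them passed in at least 1 comparison, as did 2.63% of all probes. Among 6 other ligands, Gdf15 rose after crush in Cre-negative retinas, by 1.18 (SE 0.07, limma adjusted p = 3.9e-09), from -3.62 ± 0.07 (n = 4) to -2.44 ± 0.05 (n = 3). GDF15 is a stress-induced ligand that signals through RET with the receptor GFRAL, and Gfral did not pass the filter on dim signal here. In Cre-positive retinas Gdf15 gave 0.14 (SE 0.06, adjusted p = 0.47), and the responses differed by -1.05 (SE 0.09, adjusted p = 3.4e-06). Cre-positive crushed retinas stood 0.85 below Cre-negative ones (difference -0.85, adjusted p = 3.6e-07). The other ligands with values nearest the threshold after crush in Cre-negative retinas were Ntf5, a TrkB ligand, at 0.25 (adjusted p = 0.23), and Artn, which encodes artemin, at 0.15 (adjusted p = 0.24).

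None of 15 other receptors and co-receptors passed in any comparison. After crush in Cre-negative retinas 7 of the 15 had an unadjusted p under 0.05 (13.2% of all probes did), and the median change of the list was -0.16, against 0.00 over all probes tested. By the same unadjusted threshold the counts were 2 of 15 after crush in Cre-positive retinas, with a median of -0.03, where 9.37% of all probes met it. They were 6 of 15 for the Cre effect in crushed retinas, with a median of 0.10, where 13.8% of all probes met it. The 14 ganglion cell markers had medians of -0.61, -0.26 and 0.46 in these comparisons, and their part in the list's values was not tested. The nearest were Lingo1, a partner of the Ngfr product in a receptor for myelin inhibitors, at -0.21 (limma adjusted p = 0.059), Gfra3, the artemin receptor, at 0.26 (adjusted p = 0.071), and Rtn4r, the Nogo receptor, at -0.24 (adjusted p = 0.1). Sort1, whose product binds proneurotrophins together with the Ngfr product, gave -0.27 (adjusted p = 0.32) there and 0.36 (adjusted p = 0.15) for the Cre effect in crushed retinas. None of 27 receptor adaptors and effectors passed either. From 0 to 4 of them had an unadjusted p under 0.05 in a comparison, where 5.42% to 13.8% of all probes did. The median change of this list was 0.03 after crush without Cre and 0.01 with it. Frs2 (-0.26, adjusted p = 0.23), Shc2 (-0.24, adjusted p = 0.27), Traf6 (-0.20, adjusted p = 0.26) and Gab1 (0.22, adjusted p = 0.34) had the named values for the Cre effect in crushed retinas.

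Of 11 genes for proneurotrophin processing and trafficking, 1 rose after crush in Cre-negative retinas, as did 1.21% of all probes. Of the same 11, 1 was higher in Cre-positive crushed retinas, as were 0.597% of all probes. Plat, which encodes tissue plasminogen activator, rose by 0.35 (SE 0.07, limma adjusted p = 0.0099) without Cre and gave 0.25 (SE 0.06, adjusted p = 0.052) with Cre, and these responses differed by -0.10 (SE 0.09, adjusted p = 0.82). Pcsk2, a prohormone convertase, was 0.30 higher in Cre-positive crushed retinas (SE 0.06, adjusted p = 0.019).

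Of 18 genes known to be induced by neurotrophin or GDNF signalling in neurons, 4 rose and 1 fell after crush in Cre-negative retinas, where 1.21% of all probes rose and 0.768% fell. None passed in Cre-positive ones, where 4 had an unadjusted p under 0.05 in limma, as did 9.37% of all probes. All of them also answer to other signals. Arc, an immediate early gene of synapses, rose by 0.54 (SE 0.07, limma adjusted p = 0.00015), Crem, a cAMP-responsive transcription factor, by 0.54 (SE 0.08, adjusted p = 0.00085), Vgf, a neuropeptide precursor, by 0.46 (SE 0.08, adjusted p = 0.0034), and Junb, an AP-1 subunit, by 0.43 (SE 0.10, adjusted p = 0.027). Etv1, an ETS transcription factor named because it was the only one of the 18 to fall, gave -0.29 (SE 0.07, adjusted p = 0.046). In Cre-positive retinas Arc gave -0.04, Crem 0.24, Vgf 0.12 and Junb 0.16, with adjusted p of 0.87, 0.16, 0.62 and 0.58. The difference between the responses passed for Arc (-0.58, SE 0.09, adjusted p = 0.0039) and not for Crem (-0.30, adjusted p = 0.42), Vgf (-0.34, adjusted p = 0.32) or Junb (-0.28, adjusted p = 0.59).

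In crushed retinas Arc (-0.46, limma adjusted p = 0.00077) and Vgf (-0.35, adjusted p = 0.034) were lower with Cre, the direction that Bdnf took. Crem stood at -0.32 (adjusted p = 0.059) and Junb at -0.09 (adjusted p = 0.72). In uncrushed retinas the Cre effect was 0.12 for Arc, 0.00 for Vgf, -0.02 for Crem and 0.19 for Junb, against -0.29 for Bdnf, and none of these passed. The median of the 18 genes was 0.22 after crush in Cre-negative, 0.09 in Cre-positive retinas and -0.22 for the Cre effect in crushed retinas, against 0.00, 0.00 and 0.01 over all probes.

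The genes whose ratios followed those of each member most closely were found by Pearson correlation over the 17 arrays, among 16757 genes. These values share arrays, labelling and groups, and they are given as a description. Bdnf was followed most closely by Rbm12b2 (r = 0.92), Per1, a circadian clock gene (r = 0.90), and Surf6 (r = 0.88). None of the 3 passed for the Cre effect in crushed retinas, where Rbm12b2 gave -0.22 (limma adjusted p = 0.11), Per1 -0.34 (adjusted p = 0.16) and Surf6 -0.24 (adjusted p = 0.15). For Per1 the Cre effect was -0.40 in uncrushed retinas, where Bdnf gave -0.29. Ntrk3, by A_66_P118329, was followed by Cpne4 (r = 0.95), Lypd6 (r = 0.92) and Kcnj9, a potassium channel subunit (r = 0.92). After crush in Cre-negative retinas these gave -0.60 (adjusted p = 0.074), -0.34 (adjusted p = 0.14) and -0.24 (adjusted p = 0.29).

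The closest genes to the remaining members are given by name and r. Ntrk2, by A_55_P2006792, was followed by H2-Ke6 and Il1rapl2 (r = 0.90 each) and Mboat2 (r = 0.87), and Ntf3 by Tnfrsf21 (r = 0.81), Epb41l4b and Dnajb3 (r = 0.78 each). Ngfr was followed by Tedc2 (r = 0.81), AW554918 and Man2b1 (r = 0.80 each), and Gfra1 by Olfr810 and Cap2 (r = 0.82 each) and Anks1 (r = 0.81). Ret was followed by Nfxl1 (r = 0.80), Tjp1 and Jmjd1c (r = 0.79 each). Gdnf had the lowest r of the 8 genes, with Fgf11 and Maats1 (r = 0.71 each) and Obox3 (r = 0.70).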

How the data were processed

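Whole retinas were profiled on 2-colour Agilent arrays, with retinal RNA in Cy5 and the reference in Cy3, per the labels. The deposited scanner files give the median intensity of each spot and its local background, with no normalization, and processed intensity values from Agilent Feature Extraction 10.7.3.1, per the file headers. They also hold a deposited log10 ratio, which differed from the ratio of the processed signals by at most 0.0836. The authors' deposited value table, made with limma per the submitters' processing notes, has no stated scale, and was read as log2 of Cy5 over Cy3 because regression of its columns on the recomputed log2 ratios gave slopes from 1 to 1.02. Its columns have medians between 0.015 and 0.0237, so any centring is unknown. It served as an alternative.

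Ratios were computed with limma 3.58.1 in R 4.3.3 by normexp with an offset of 50 on median signals (the planned mean signal is not in the columns) and loess within each array. That offset understates the ratios of dim spots. Outlier spots were dropped and spots of a probe averaged, and no member value was missing. Probes needed Cy5 well above background on at least 3 arrays. The 17 arrays were fitted with 4 group means, and all tests were two-sided. Probe symbols came from RefSeq accessions, and genome positions of the probes are not used here. Precision is limited by how many arrays there are. The fit was tested on simulated data with independent noise on each array. The simulation held no effect of slide, position or shared animals, so it cannot show how these act on the tests.

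Named genes were every member with every probe, up to 4 genes of each other list with the smallest adjusted p, and the 3 genes most correlated with each member. In the lists beside the members, the probe with the highest mean intensity stood for a gene. The members, lists and tests were chosen with earlier results of these data known. The 15 marker lists covered ganglion, amacrine, horizontal and bipolar cells, rods, cones, Müller glia, astrocytes, oligodendrocytes and Schwann cells, microglia and macrophages, vascular cells, pigment epithelium, lens, cornea with iris and ciliary body, and red blood cells.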

Additional observations from a re-analysis of the deposited data

How the results depend on the processing

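Over 2250 values, each 1 member probe in 1 comparison under 1 alternative, 2246 kept their side of the threshold. Only 1 of the 65 member tests passed in the main fit, so most values had little room to change side. Fitting only the groups of a comparison raised the members passing after crush in Cre-negative retinas from 0 to 2, Bdnf (0.27, limma adjusted p = 0.047) and the Ntrk3 probe A_66_P118329 (-0.35, adjusted p = 0.036), and no other alternative did so for them. Leaving out 1 replicate at a time gave 0 to 1 members passing for the Cre effect in crushed retinas and 0 in the other comparisons. Bdnf lost its call there without Cre-negative crushed replicate 2 or 3. Over its 35 alternatives that effect was -0.64 to -0.44, with adjusted p of 0.0048 to 0.081, and passed in 33. No passing value changed sign, but few values passed. Some values that did not pass took both signs over the alternatives. The crush response without Cre ran from -0.25 to 0.5 for Ntrk3 A_52_P500274 and from -0.32 to 0.61 for A_55_P2006808.

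Counts over all probes moved more. Placing the array with disagreeing labels in the Cre-negative uncrushed group gave 88, 12, 0 and 138 probes for the crush responses without and with Cre, their difference and the Cre effect in crushed retinas, against 602, 224, 109 and 340. With that placing the Cre effect on Bdnf in crushed retinas was -0.51 (limma adjusted p = 0.037). Placing the array in the Cre-negative crushed group gave 824, 213, 127 and 462, and there the crush response of Bdnf was 0.20 (limma adjusted p = 0.41) and its Cre effect -0.44 (adjusted p = 0.022). Array weights gave 1372 for the first, 165 for the third and 607 for the fourth. Fitting only the groups of a comparison gave 58 for the second and 225 for the fourth. Slide as a fixed block gave 162 for the fourth. Processed signals gave 70 for the third. Leaving out the cornea-rich and lens-rich arrays, added after seeing the data together with the Cy5 channel after loess and Aquantile, gave 133 for the second. Without 1 replicate the counts were 363 to 749, 130 to 265, 86 to 127 and 186 to 366. For the Cre effect in uncrushed retinas all alternatives gave 1 to 3 against 3. The cause of these moves was not tested. Aquantile leaves ratios unchanged by its construction. No paired analysis was possible because the labels give no replicate numbers. Reference signals not well above background limit the ratios of Ntf3, Gfra1, Ret and 5 of the 7 Ntrk2 and Ntrk3 probes.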

Other observations

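On the marker lists, microglia and macrophage genes rose after crush in 4 of 11 (Cre-negative) and 9 of 11 (Cre-positive), with a mean log2 ratio of 0.35 to 0.43 and 0.37 to 0.97 in crushed retinas against -0.04 to -0.02 and -0.03 to 0.16 in uncrushed ones. Astrocyte genes rose in 2 of 6 in both genotypes, and Müller glia genes in 1 of 12 and 2 of 12, with 1 of 12 lower in Cre-positive retinas. Of 12 amacrine genes, 1 rose and 1 fell without Cre. In crushed retinas 1 of 5 horizontal cell genes was higher with Cre. Over all probes 1.21% rose and 0.768% fell after crush without Cre, and 0.646% rose and 0.0886% fell with Cre. In crushed retinas 0.597% of all probes were higher with Cre. None of the bipolar cell, rod, cone, oligodendrocyte and Schwann cell, endothelial cell and pericyte, pigment epithelium, lens, cornea or red blood cell genes passed in limma in any of the 5 comparisons. From 0 to 3 genes of a list had an unadjusted p under 0.05 in a comparison, where 5.42% to 13.8% of all probes did.

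The Cre-negative array that the labels place in no group gave -0.81 for Bdnf, 0.56 for Ntf3, -4.01 for Gdnf, 2.34 for Ntrk3 (A_66_P118329), 0.23 for Ntrk2 (A_55_P2006792), 3.96 for Ngfr, 0.89 for Gfra1 and 5.32 for Ret. Its mean over the 14 ganglion cell markers was 2.46, against 2.46 to 2.55 in the Cre-negative crushed and 3.20 to 3.30 in the Cre-negative uncrushed retinas, and these values did not set its group. Its Ntf3 and Ntrk2 values lay below the lowest of the 17 arrays for the same probes, 0.76 and 0.63.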
